A study of Mus musculus with 12 samples.

Results

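The transcription factor HNF4A was expressed in fibroblasts that lack it, and 86 of the 24340 gene entries in the 3T3 table went from below 0.5 FPKM (fragments per kilobase of exon, scaled to the reads of the library) in control cells to 3 FPKM or more in the HNF4A EE (ectopic expression) cells. These entries were chosen by that rule alone, Hnf4a itself left out, and make up 0.353% of all entries and 0.636% of the 13520 entries below 0.5 FPKM in control cells. The study used 12 samples in 4 groups of 3 biological replicates. Control 3T3 cells (NIH 3T3, an established mouse fibroblast line) carried a lentivirus with the empty vector, and HNF4A EE cells a lentivirus with mouse Hnf4a isoform 2 joined to eGFP through an internal ribosome entry site. Both were collected 72 h after transduction, with virus titrated so that nearly all cells were transduced. The Hnf4a cKO livers came from adult Hnf4a fl/fl mice with Alb-CreERT2, a tamoxifen-inducible Cre driven by the Albumin promoter, which acts in hepatocytes. These mice received tamoxifen every other day and were collected on day 7. Control livers, labelled WT, came from mice without tamoxifen, which the methods give as Hnf4a fl/fl without Cre and a supplementary legend as having the genotype of the cKO mice. Loss of HNF4A cannot be told apart from tamoxifen or, if the controls lacked Cre, from Cre. The labels call the liver samples hepatocytes, but RNA was taken from pulverized livers, so in these bulk samples fewer cells of a type and less RNA per cell cannot be told apart.

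Each table gave 1 FPKM per group, the authors' value over 3 samples. No spread between samples, interval or test could be computed, the depth per sample is unknown, and every difference below is a ratio of 2 group values. An entry was called higher or lower when log2 of the ratio of FPKM + 0.1 reached 1 in size, that is 2-fold. Hnf4a was at 0.639 FPKM in control cells and 1758 FPKM in HNF4A EE cells, and at 274.9 FPKM in control liver and 144.1 FPKM in cKO liver. That liver value is for the whole gene and does not separate the floxed exons from the rest. The median log2 ratio of entries at 1 FPKM or more in both groups was -0.02 in each table. Of the 12 hepatocyte markers listed, all stayed below 0.5 FPKM in HNF4A EE cells, with a summed level of 0.528 FPKM (0.129 FPKM in control cells). One of them, Alb, the gene of serum albumin, is also listed at 0 FPKM in both liver groups, with a status of low data that no other liver entry has. A listed 0 in these tables is therefore not read as absence of the transcript. The markers of fibroblasts summed to 8601 FPKM in control and 500.1 FPKM in HNF4A EE cells, with 7 of the 9 markers expressed in control cells lower.

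HNF4A is a nuclear receptor that binds DNA as a homodimer at direct repeats of an AGGTCA-like element and is found in liver, intestine, kidney and pancreas. In hepatocytes it drives genes of lipoprotein assembly, blood plasma proteins and detoxification, and in the intestine genes of the absorptive cell surface. The members held genes of both tissues, and many of neither. Of the 86 entries, 71 matched a protein coding gene in RefSeq, 3 a long noncoding RNA, 6 a microRNA and 2 a small nucleolar RNA. A further 2 entries name several genes and 2 matched no current symbol. In control cells 20 members were listed at 0 FPKM and the median was 0.0487 FPKM. In HNF4A EE cells the 78 members that are not small RNA entries had a median of 6.36 FPKM, with 26 between 3 and 5 FPKM, 35 between 5 and 10 FPKM, 9 between 10 and 20 FPKM and 8 above that. Most were therefore switched on to a low level. The authors' status column marked 80 members as having enough reads to compare and 6 as not compared, and all 6 were small RNA entries.

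**Figure D1:**
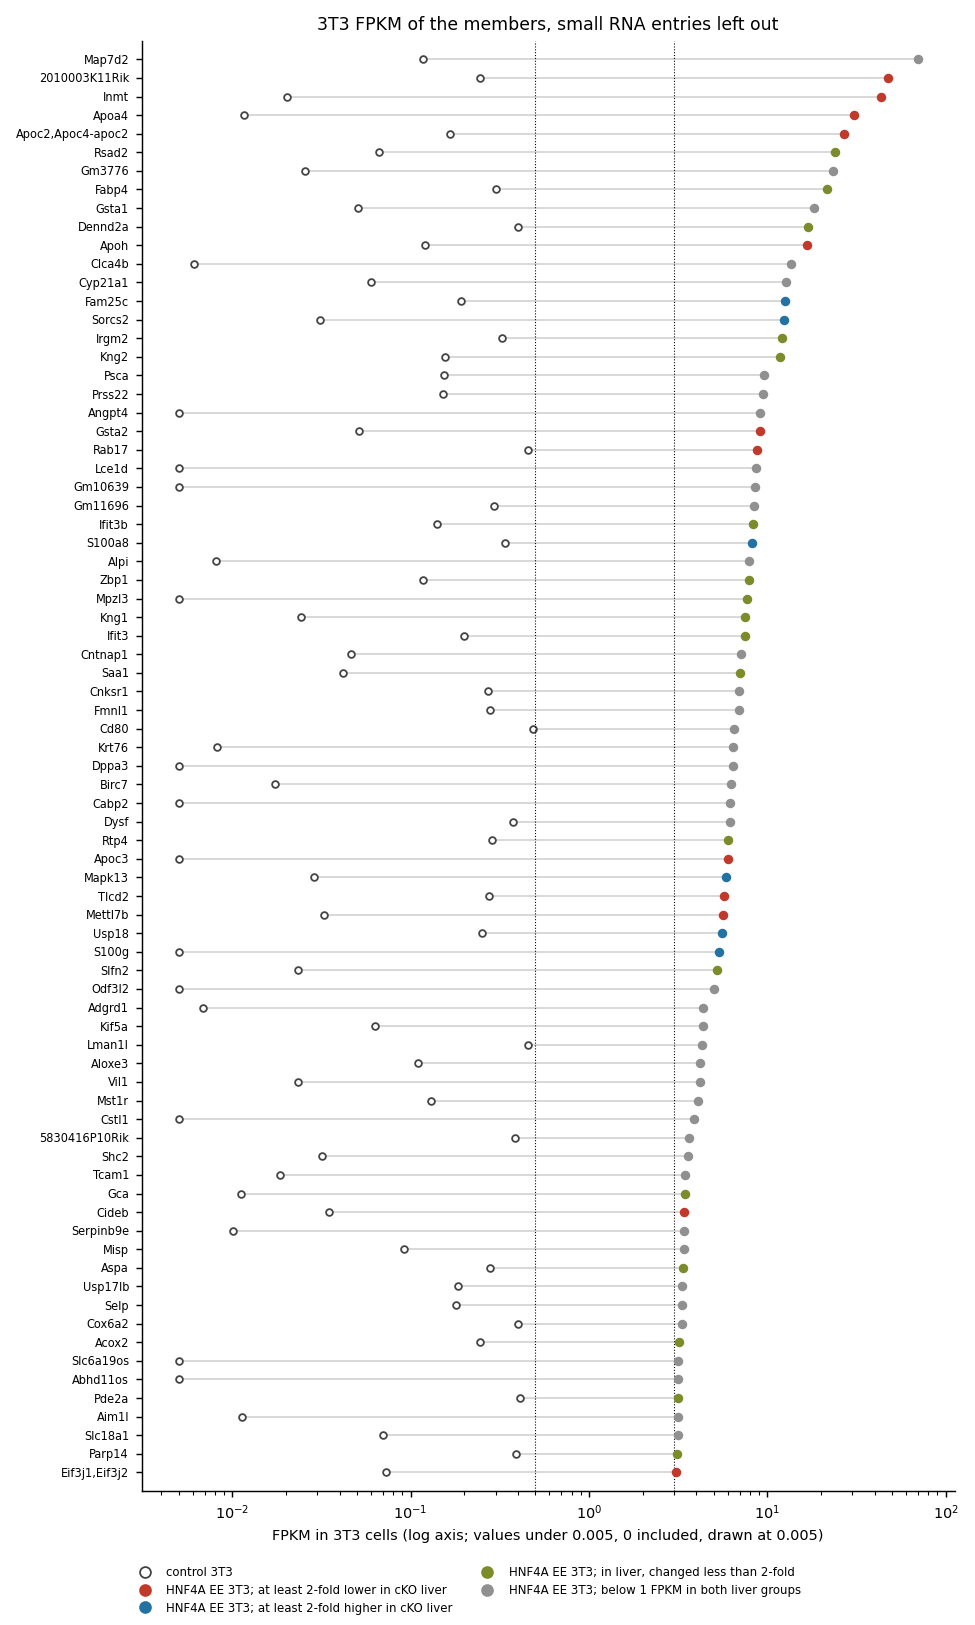
FPKM of the members that are not small RNA entries (all but 1 of the 78) in control 3T3 cells (open points) and HNF4A EE 3T3 cells (filled points) on a log axis, ordered by the HNF4A EE value, with dotted lines at the limits of the rule, 0.5 and 3 FPKM. Colours give the state in liver, and the members lower in cKO liver lie between 3.08 FPKM (the Eif3j1 entry) and 47.6 FPKM (2010003K11Rik), among members of the other states, with Map7d2 at 69.7 FPKM highest.

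In liver, which the rule did not use, the members fell into 4 states. At 1 FPKM or more in control liver were 34 of the 86 members, or 39.5%. The share was 12.7% among the 13031 entries that stayed below 0.5 FPKM in both 3T3 groups and 43.9% among all entries. Of those 34 members, 12 (35.3%) were at least 2-fold lower in cKO liver. The share lower was 11.4% over all entries at that level in control liver, but 34.5% over the 1656 liver-expressed entries that stayed silent in 3T3 cells. The share of members expressed in control liver was thus above that of the silent entries and near that of all entries. The silent entries were held below 0.5 FPKM in both 3T3 groups, whereas members had to reach 3 FPKM. Among those expressed in control liver, the share lower in cKO liver was near that of the silent entries. At 1 FPKM or more in cKO liver were 36 members, of which 7 (19.4%) were at least 2-fold higher than in control liver, against 8.27% over all entries and 16.6% over the entries silent in both 3T3 groups. A further 19 changed less than 2-fold. The other 48 members (55.8%) were below 1 FPKM in both liver groups, against 53.7% of all entries and 85.7% of the entries silent in both 3T3 groups, and 19 of them were listed at 0 FPKM in both.

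The same values read in the other direction. Of the 624 entries that were silent in control 3T3 cells and lower in cKO liver, 12 were switched on in HNF4A EE cells (1.92%). Of the 1189 silent entries at 1 FPKM or more in control liver and not lower in cKO liver, 22 were switched on (1.85%). Of the 11707 silent entries below 1 FPKM in control liver, 52 were switched on (0.444%). Silent entries that only reached between 0.5 and 3 FPKM in HNF4A EE cells, 403 in number, lay between members and silent entries, with 30.5% at 1 FPKM or more in control liver and 32.5% of these lower in cKO liver.

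**Figure D2:**
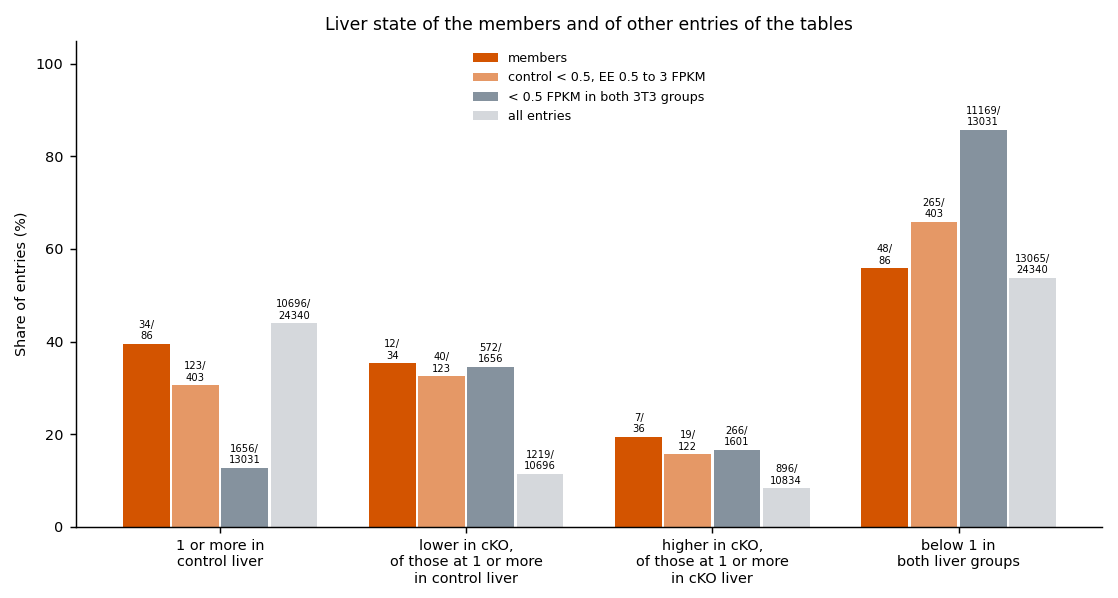
Share of entries in % in each liver state, for the members, for entries below 0.5 FPKM in control 3T3 that reached 0.5 to 3 FPKM in HNF4A EE cells, for entries below 0.5 FPKM in both 3T3 groups and for all entries, with the counts above each bar. The bars for being lower in cKO liver are at 35.3%, 32.5% and 34.5% for the 3 sets silent in control cells, while the bars for being expressed in control liver are at 39.5%, 30.5% and 12.7%.

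Of 7 members of lipoproteins and lipid handling, a group formed after the members were known, 6 were at least 2-fold lower in cKO liver. The share lower was 34.5% over liver-expressed entries silent in both 3T3 groups. It was 59.8% over those of them at 100 FPKM or more in control liver. Apoa4, the apolipoprotein of chylomicrons and high-density lipoprotein, was at 0.0116 FPKM in control 3T3 cells and 30.7 FPKM in HNF4A EE cells, and at 963.7 FPKM in control liver and 113.9 FPKM in cKO liver, 8.46-fold lower. Apoc3, an inhibitor of lipoprotein lipase, was listed at 0 in control cells and reached 6.0 FPKM, and in liver it was at 5658 FPKM in control and 523.2 FPKM in cKO, 10.8-fold lower. The entry that joins Apoc2, the activator of lipoprotein lipase, with the Apoc4-Apoc2 readthrough went from 0.165 FPKM to 26.9 FPKM in the cells and was at 306.7 FPKM and 83.1 FPKM in control and cKO liver, 3.69-fold lower. An activator and an inhibitor of the same lipase were thus switched on together and were both lower in cKO liver. Apoh, a plasma glycoprotein that binds phospholipids, went from 0.120 FPKM to 16.8 FPKM in the cells and from 3035 FPKM to 1163 FPKM between control and cKO liver, 2.61-fold lower. Cideb, a protein of lipid droplets needed for lipidation of very low density lipoprotein, went from 0.0349 FPKM to 3.41 FPKM in the cells and was 20.7-fold lower in cKO liver, at 216.9 FPKM in control and 10.5 FPKM in cKO. Tlcd2, a membrane protein that affects membrane lipid composition, went from 0.276 FPKM to 5.71 FPKM and was 4.07-fold lower in cKO liver (50.1 FPKM against 12.3 FPKM). Fabp4, a fatty acid binding protein best known from adipocytes, was the exception of the 7 lipid genes, with 0.303 FPKM and 21.7 FPKM in the cells and 12.6 FPKM and 7.61 FPKM in control and cKO liver, a difference under 2-fold. Of the 23 genes found from a list of apolipoproteins and lipid transport, 18 were silent in control cells, 5 were switched on and 2 more, Apob and Apoc4, reached between 0.5 and 3 FPKM. The other silent genes of the list stayed below 0.5 FPKM in HNF4A EE cells. Some of these were lower in cKO liver, such as Apoa2 (19440 FPKM in control and 358.4 FPKM in cKO) and Fabp1 (10744 FPKM and 447.5 FPKM). Others, such as Apoa1 and Apoa5, were not.

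Other plasma proteins made up 3 members. From 66 genes found on a list of secreted plasma proteins, 62 were silent in control 3T3 cells and 2, Kng1 and Saa1, were switched on. Over all silent entries, 0.636% were switched on, the share that stands beside this and every other list. The lists were chosen with earlier results of these data known, so their counts are not read against it. Kng1 and Kng2, the kininogens from which bradykinin is released, were at 0.0242 FPKM and 0.157 FPKM in control cells and at 7.49 FPKM and 11.9 FPKM in HNF4A EE cells. In liver Kng1 was at 1540 FPKM in control and 1031 FPKM in cKO, and Kng2 at 244.7 FPKM and 328.2 FPKM. Saa1, an acute phase protein, went from 0.0417 FPKM to 7.06 FPKM in the cells and was at 89.3 FPKM and 68.9 FPKM in control and cKO liver. None of these 3 plasma protein genes differed by 2-fold in liver. On the whole lists, switched on or not, 24 of 63 secreted plasma protein genes and 11 of 22 apolipoprotein and lipid transport genes at 1 FPKM or more in control liver were lower in cKO liver. Of 31 hepatic and endodermal transcription factors listed, 29 were silent in control cells and none of them was switched on or reached 0.5 FPKM in HNF4A EE cells.

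**Figure D3:**
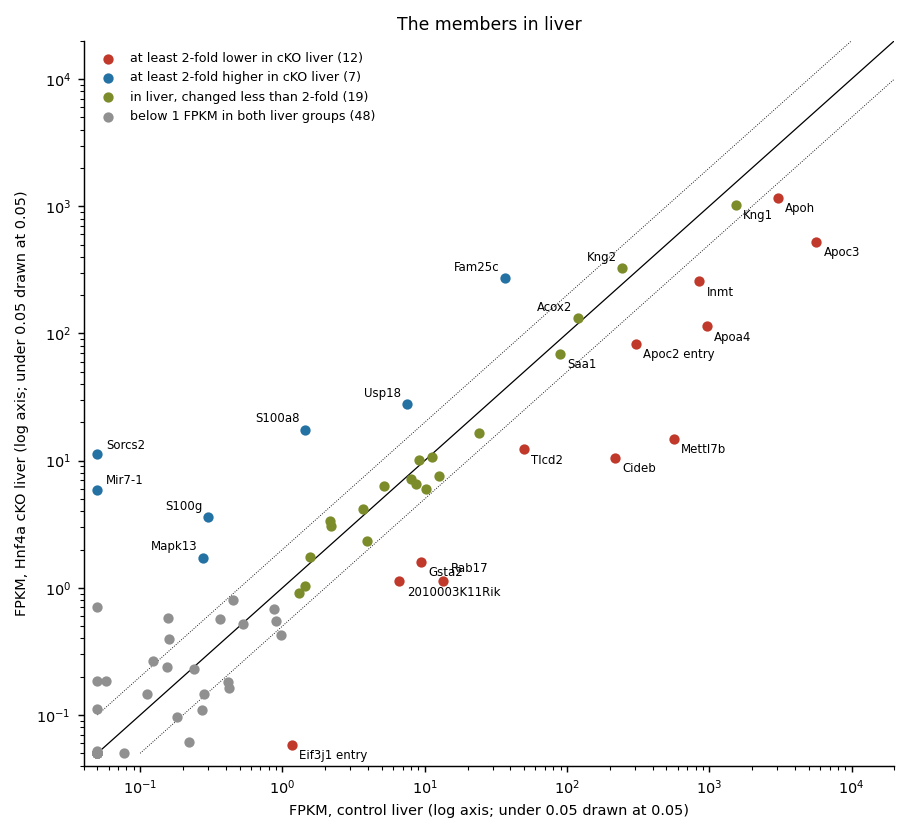
FPKM of the 86 members in control liver (x axis) and Hnf4a cKO liver (y axis), both on log axes, with the line of equality and dotted lines at 2-fold, values under 0.05 FPKM drawn at 0.05. The 12 members lower in cKO liver include 7 of the 10 members above 100 FPKM in control liver, and the 3 others, Kng1, Kng2 and Acox2, lie within 2-fold.

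The 10 members at 100 FPKM or more in control liver were Apoc3, Apoh, Kng1, Apoa4, Inmt, Mettl7b, the Apoc2 entry, Kng2, Cideb and Acox2, and 7 of them were at least 2-fold lower in cKO liver. The background at that level was 34.2% of 884 entries, and 59.8% of the 286 entries silent in both 3T3 groups. The 3T3 and liver tables were normalized separately, so levels are compared across them only by order of magnitude. In HNF4A EE cells these 10 genes stood at between 0.106% (Apoc3) and 8.78% (the Apoc2 entry) of their control liver level. Over the 34 members expressed in control liver, the level in HNF4A EE cells and the level in liver had a Spearman rho of 0.20, given as a description over genes that share the same libraries.

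Among enzymes, those of the liver and those of other organs were switched on side by side. Inmt, which methylates indole amines with S-adenosylmethionine, went from 0.0204 FPKM to 43.4 FPKM in the cells and was 3.30-fold lower in cKO liver, at 850.3 FPKM in control and 257.8 FPKM in cKO. Mettl7b, a methyltransferase of the endoplasmic reticulum and lipid droplets, went from 0.0328 FPKM to 5.67 FPKM in the cells. It showed the largest fall of all members in liver, 37.7-fold lower, at 561.5 FPKM in control and 14.9 FPKM in cKO. The locus listed for Mettl7b overlaps Itga7, which was at 0.0716 FPKM and 0.609 FPKM in the cells and moved the other way in liver, from 2.79 FPKM to 6.55 FPKM. Acox2, the peroxisomal oxidase of bile acid intermediates and branched fatty acids, was at 0.246 FPKM and 3.19 FPKM in the cells and at 119.6 FPKM and 132.0 FPKM in control and cKO liver. Aspa, which splits N-acetylaspartate, was at 0.280 FPKM and 3.38 FPKM in the cells and likewise close in both livers, at 11.2 FPKM and 10.7 FPKM. Pde2a, a phosphodiesterase of cyclic nucleotides, had 0.413 FPKM and 3.15 FPKM in the cells and 8.07 FPKM and 7.11 FPKM in liver. Enzymes of other organs were near 0 in liver. Cyp21a1, the steroid 21-hydroxylase of the adrenal gland, went from 0.0596 FPKM to 12.7 FPKM in the cells and stayed below 0.3 FPKM in both liver groups. Alpi, the intestinal alkaline phosphatase of the brush border, went from 0.00812 FPKM to 7.94 FPKM and was at 0 FPKM in control liver and 0.703 FPKM in cKO liver. Aloxe3, an epidermal lipoxygenase needed for the skin barrier, went from 0.110 FPKM to 4.22 FPKM and was below 0.01 FPKM in both livers. From 83 genes found on a list of liver enzymes, 72 were silent in control cells, 4 were switched on and 5 more (Ces2c, Hgd, Kmo, Ttpa and Aqp8) reached between 0.5 and 3 FPKM.

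At 4 neighbouring entries of 1 locus, Gsta1, Gm3776, Gm10639 and Gsta2 on chromosome 9 (78230669 to 78347145 on mm10), all were switched on. Gsta1 and Gsta2 encode alpha class glutathione S-transferases, which join glutathione to electrophiles. In control and HNF4A EE cells Gsta1 was at 0.0509 FPKM and 18.3 FPKM, Gm3776 at 0.0255 FPKM and 23.4 FPKM, Gm10639 at 0 FPKM and 8.54 FPKM, and Gsta2 at 0.0513 FPKM and 9.11 FPKM. In liver only Gsta2 reached 1 FPKM, at 9.42 FPKM in control and 1.60 FPKM in cKO, 5.87-fold lower, while the other 3 stayed below 1 FPKM. The longest protein coding transcripts of these entries in GENCODE were between 96.3% and 99.5% identical over the aligned bases, and Gsta1 and Gm3776 were the closest pair. Reads could be shared or split between copies this close, so the value of each entry is uncertain. Gsta4, the next gene of the locus, was already expressed in control cells, at 99.6 FPKM against 426.7 FPKM in HNF4A EE cells. The 190 bases before each RefSeq start (GRCm38.p6) are shown because the promoters of the 4 entries can be compared base by base, with matches to TTCNNGAA, facing units of a heat shock element, in capitals.
Gsta1 (chr9:78230479-78230668, plus strand): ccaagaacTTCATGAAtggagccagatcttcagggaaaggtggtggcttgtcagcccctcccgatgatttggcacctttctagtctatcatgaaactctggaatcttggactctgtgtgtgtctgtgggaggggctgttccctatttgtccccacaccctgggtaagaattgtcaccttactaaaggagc
Gm3776 (chr9:78256939-78257128, plus strand): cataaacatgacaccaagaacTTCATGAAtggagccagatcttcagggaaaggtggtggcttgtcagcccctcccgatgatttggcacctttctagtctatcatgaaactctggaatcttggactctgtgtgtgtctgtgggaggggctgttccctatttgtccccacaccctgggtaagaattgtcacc
Gm10639 (chr9:78289738-78289927, plus strand): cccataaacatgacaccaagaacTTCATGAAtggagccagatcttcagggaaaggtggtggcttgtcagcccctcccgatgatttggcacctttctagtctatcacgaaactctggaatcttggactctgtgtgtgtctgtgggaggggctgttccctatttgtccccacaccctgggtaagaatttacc
Gsta2 (chr9:78347146-78347335, minus strand): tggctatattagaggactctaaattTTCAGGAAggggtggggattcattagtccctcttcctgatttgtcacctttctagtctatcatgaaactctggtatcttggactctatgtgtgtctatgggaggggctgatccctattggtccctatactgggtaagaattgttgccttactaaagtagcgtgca

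Over the 250 bases before the start, Gsta1 and Gm3776 were identical at 99.6% of 237 aligned bases and Gm3776 and Gm10639 at 99.6% of 243, while Gsta1 and Gsta2 were identical at 83.9% of 168. TTCNNGAA was found in 9.09% of the 17191 genes of the tables with a promoter window and in 8 members, on either strand. Of the 86 members, 55 (64.0%) had such a window, fewer than the share needed for a check over the whole set, so the motif counts are given for single genes and not read as a property of the members. No match to CAAAGTCCA or CAAAGGTCA, forms of the site that HNF4A binds, was in the windows of the Gsta entries.

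**Figure D4:**
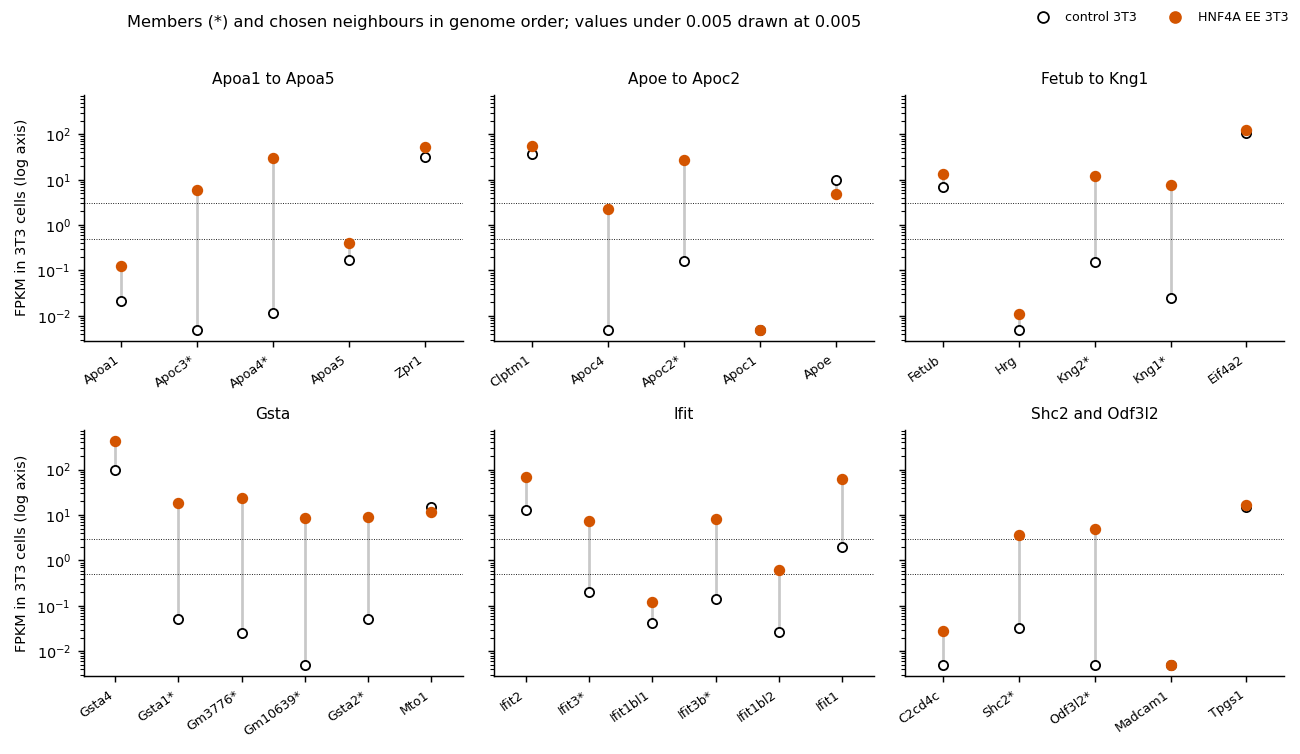
FPKM in control (open) and HNF4A EE (filled) 3T3 cells on a log axis for members (marked *) and chosen neighbours, in genome order at 6 loci, with dotted lines at 0.5 and 3 FPKM. At loci other than Gsta, switched-on genes sit beside genes that stayed low, such as Apoa1 and Apoa5 beside Apoc3 and Apoa4, and Hrg beside Kng2 and Kng1.

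Another member lay within 100 kb for 13 of the 86, Misp included, by the loci as listed in the table. The 13 include the Gsta entries, the kininogens, and Ifit3 with Ifit3b, families whose transcripts are much alike. The same share over all entries was not computed. At the Apoa1, Apoe, kininogen, Ifit and Shc2 loci, genes that stayed low lay beside members. At the Gsta locus the neighbours looked at were not low, with Gsta4 at 99.6 FPKM and Mto1 at 14.9 FPKM in control cells. At the Apoa1 cluster on chromosome 9, Apoc3 and Apoa4 were switched on, while Apoa1 was at 0.0215 FPKM and 0.128 FPKM and Apoa5 at 0.170 FPKM and 0.393 FPKM in control and HNF4A EE cells. In liver these same neighbours also parted, since Apoa1 was at 9012 FPKM in control and 11880 FPKM in cKO and Apoa5 at 742.5 FPKM and 789.7 FPKM. At this cluster the pair lower in cKO liver was thus the pair switched on in the cells. At the Apoe cluster on chromosome 7, Apoc4 went from 0 FPKM to 2.31 FPKM beside the Apoc2 entry, Apoc1 was at 0 FPKM in both groups, and Apoe was at 9.86 FPKM in control and 4.77 FPKM in HNF4A EE cells. The Apoc2 and Apoc4 entries share 1 listed locus, so reads could be split between them. At the kininogen locus on chromosome 16 the pattern differed. Kng2 and Kng1 were switched on and did not differ by 2-fold in liver, whereas Hrg, the neighbouring gene of histidine-rich glycoprotein, stayed at 0.0111 FPKM in HNF4A EE cells and was at 682.4 FPKM in control liver and 29.1 FPKM in cKO liver. The longest transcripts of Kng1 and Kng2 were 91.2% identical. On chromosome 10, Shc2, an adaptor protein of neurons, and Odf3l2, named for the outer dense fibers of sperm, lie side by side and reached 3.60 FPKM and 5.00 FPKM, while Madcam1 was at 0 FPKM in both groups and Tpgs1 at 14.7 FPKM and 16.3 FPKM. The locus listed for Misp, also on chromosome 10, overlaps 47 other entries, so its place beside this pair comes from the listed span.

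Genes of epithelial surfaces were switched on as well. Of the 12 members grouped here, 8 (66.7%) were below 1 FPKM in both liver groups, beside 55.8% of all members and 85.7% of entries silent in both 3T3 groups. Vil1, the actin bundling protein villin of microvilli, went from 0.0234 FPKM to 4.20 FPKM in the cells and was at 0.155 FPKM and 0.239 FPKM in control and cKO liver. The locus listed for Vil1 overlaps 4 other entries. They range from Plcd4, at 0 FPKM and 0.00667 FPKM in control and HNF4A EE cells, to Rqcd1, at 30.1 FPKM and 29.0 FPKM. Clca4b, of the family of calcium-activated chloride channel regulators, went from 0.00606 FPKM to 13.6 FPKM and was at 0 FPKM in control liver and 0.186 FPKM in cKO liver. Rab17, a small GTPase of polarized membrane traffic in epithelial cells, was the member of this group that is a liver gene lower in cKO liver, with 0.456 FPKM and 8.81 FPKM in the cells and 13.5 FPKM and 1.14 FPKM in liver, 11.9-fold lower. Mapk13, the p38 delta kinase, and S100g, the calcium-binding protein of intestinal absorptive cells, were higher in cKO liver. Mapk13 went from 0.0287 FPKM to 5.84 FPKM in the cells and was at 0.276 FPKM and 1.72 FPKM in control and cKO liver. S100g went from 0 FPKM to 5.38 FPKM in the cells and was at 0.300 FPKM and 3.58 FPKM in liver, but its listed locus overlaps 7 other entries. From 57 genes found on a list of the brush border and absorptive epithelium, 52 were silent in control cells, 2 were switched on (Vil1 and 2010003K11Rik, whose place on the list rests on no known function) and 4 reached between 0.5 and 3 FPKM (Mep1a, Slc6a19, Muc13 and Ggt1). Of 60 listed genes of epithelial junctions, keratins and their regulators, 52 were silent and 1, Aloxe3, was switched on, with Cldn4 and Krt8 between 0.5 and 3 FPKM.

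2010003K11Rik, for which no role is given here, had the second highest level of the members that are not small RNA entries, with 0.246 FPKM in control cells and 47.6 FPKM in HNF4A EE cells. In liver it was at 6.64 FPKM in control and 1.12 FPKM in cKO, 5.90-fold lower. Its promoter is shown with that of Alpi because these windows and that of Slfn2 held the only matches to the HNF4 site forms among the members with a window. The capitals mark CAAAGGTCA (found in 0.512% of the 17191 genes) or CAAAGTCCA (0.564%), on either strand, and TGANTCA, a form of the AP-1 site, in 2010003K11Rik and TATAAA in Alpi.
2010003K11Rik (chr19:4498594-4498693, minus strand): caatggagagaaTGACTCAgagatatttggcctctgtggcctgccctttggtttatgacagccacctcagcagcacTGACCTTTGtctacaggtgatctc
Alpi (chr1:87101607-87101666, minus strand): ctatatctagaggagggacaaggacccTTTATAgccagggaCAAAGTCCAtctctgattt

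The HNF4 form began 34 bases before the start of 2010003K11Rik and 19 bases before that of Alpi, and 159 bases before that of Slfn2. These matches describe the letters of the windows, and absence of a match in another window says nothing about binding of the factor there.

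A second large group consisted of interferon response genes. From 61 genes found on the list of the interferon response, 34 were silent in control 3T3 cells, 7 were switched on and 6 reached between 0.5 and 3 FPKM. The rest of the silent genes on this list stayed below 0.5 FPKM in HNF4A EE cells, among them Irf7, Mx1, Oas2 and Cmpk2. Of the listed genes that were not silent, 26 were at 1 FPKM or more in either 3T3 group, of which 16 were at least 2-fold higher and 2 at least 2-fold lower in HNF4A EE cells. Over all 10522 entries of that kind, 9.77% were higher and 10.7% lower. Rsad2, the antiviral protein viperin, went from 0.0667 FPKM to 24.1 FPKM. Ifit3 and Ifit3b, of the family of interferon-induced proteins with tetratricopeptide repeats, went from 0.199 FPKM to 7.48 FPKM and from 0.141 FPKM to 8.29 FPKM. Zbp1, a sensor of left-handed double-stranded nucleic acid, went from 0.117 FPKM to 7.93 FPKM, Rtp4 from 0.286 FPKM to 6.02 FPKM, and Usp18, the protease that removes ISG15 from proteins, from 0.25 FPKM to 5.56 FPKM. Parp14, a mono-ADP-ribosyltransferase, passed the floor narrowly at 3.11 FPKM, from 0.390 FPKM. Among the 16 listed genes already on in control cells that were higher were Ifit1 (2.03 FPKM to 61.8 FPKM), Ifit2 (13.1 FPKM to 70.6 FPKM) and Isg15 (7.62 FPKM to 52.0 FPKM). The 2 that were lower were Ifi27l2a (4.22 FPKM to 0.719 FPKM) and Ifi47 (1.41 FPKM to 0.503 FPKM), and the other 8 changed less than 2-fold. Ifnb1, interferon beta itself, was at 0.0292 FPKM in control cells and 0 FPKM in HNF4A EE cells.

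All 7 interferon members were at 1 FPKM or more in control liver, and none of them was in the lower state. On the whole list, switched on or not, 5 of 47 genes at that level were lower (10.6%). The share was 11.4% over all entries and 34.5% over entries silent in both 3T3 groups. With 7 members, the absence is not read as a trait of the group. Usp18 was 3.73-fold higher, at 7.46 FPKM in control and 27.8 FPKM in cKO. The other 6 changed less than 2-fold, with Zbp1 at 9.18 FPKM and 10.1 FPKM, Rsad2 at 2.16 FPKM and 3.34 FPKM, Ifit3 at 3.94 FPKM and 2.34 FPKM, Ifit3b at 1.44 FPKM and 1.04 FPKM, Rtp4 at 10.3 FPKM and 6.0 FPKM, and Parp14 at 8.75 FPKM and 6.57 FPKM. Of the 7, Ifit3, Ifit3b and Rsad2 had a promoter window, and each of the 3 held a match to GAAANNGAA, a form of the interferon response element. These letters were found in 9.28% of all genes with a window, and among members in Ifit3, Ifit3b, Rsad2, Irgm2, Selp, Alpi and Aim1l. Of these windows, those of Ifit3 and Ifit3b each held 3 matches. They are printed with that of Rsad2, with matches to GAAANNGAA on either strand and to TGANTCA in capitals.
Ifit3 (chr19:34583349-34583488, plus strand): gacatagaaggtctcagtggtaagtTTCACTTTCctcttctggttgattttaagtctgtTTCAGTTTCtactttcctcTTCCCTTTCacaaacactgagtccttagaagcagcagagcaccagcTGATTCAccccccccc
Ifit3b (chr19:34607745-34607884, plus strand): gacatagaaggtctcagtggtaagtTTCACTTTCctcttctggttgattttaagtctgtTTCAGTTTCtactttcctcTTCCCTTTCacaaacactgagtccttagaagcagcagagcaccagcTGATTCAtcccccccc
Rsad2 (chr12:26456513-26456592, minus strand): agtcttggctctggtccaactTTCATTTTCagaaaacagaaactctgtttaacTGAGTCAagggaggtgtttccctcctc

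The transcripts of Ifit3 and Ifit3b were 97.8% identical and their 250 bases before the start 96.9% identical over 224 aligned bases, so their FPKM values may share reads. TGANTCA was found in 8.45% of all genes with a window.

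Further genes of immune cells were switched on. Cd80, a costimulatory ligand of T cells and the only one of 44 silent genes on the list of cytokines, chemokines and receptors to be switched on, stood just inside the control limit at 0.489 FPKM and reached 6.54 FPKM. S100a8, a calcium-binding protein of neutrophils, went from 0.337 FPKM to 8.24 FPKM in the cells, while S100a9, the subunit it pairs with, was at 0 FPKM and 0.0977 FPKM. Of the 8 neutrophil markers found, S100a8 was the only one to reach 0.5 FPKM in HNF4A EE cells. Of the 15 macrophage and leukocyte markers, 12 were silent in control cells and none was switched on, with Csf1r between the limits at 0.0233 FPKM and 2.70 FPKM. Their summed level was 23.1 FPKM in control and 82.3 FPKM in HNF4A EE cells, of which Cd14 alone made up 60.9 FPKM, and Ptprc, the pan-leukocyte marker, was below 0.01 FPKM in both. In cKO liver S100a8 was 12.1-fold higher, at 17.5 FPKM against 1.45 FPKM in control. S100a9 moved with it, from 1.81 FPKM to 17.3 FPKM, and the neutrophil markers summed to 4.06 FPKM in control and 36.5 FPKM in cKO liver with 2 of 8 higher, while Mpo and Elane stayed below 0.2 FPKM. The part of neutrophils in the liver value of S100a8 was not tested.

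Neuronal, muscle, signalling and germ line genes were also switched on. Of 13 neuronal, muscle and signalling members, 11 (84.6%) were below 1 FPKM in both liver groups, close to the 85.7% of entries silent in both 3T3 groups, and so were all 5 germ line and testis members. Map7d2, a microtubule-associated protein, had the highest level of all members apart from small RNA entries, at 0.118 FPKM in control cells and 69.7 FPKM in HNF4A EE cells, and was listed at 0 in both livers. Dennd2a, an activator of Rab GTPases, went from 0.401 FPKM to 16.9 FPKM and was at 1.30 FPKM and 0.903 FPKM in control and cKO liver. Sorcs2, a sorting receptor of neurons, went from 0.0310 FPKM to 12.4 FPKM in the cells and was the member that differed most upward in liver, at 0.0357 FPKM in control and 11.3 FPKM in cKO. Sorcs2 was thus silent in control fibroblasts and control liver alike, and was on both in HNF4A EE cells and in cKO livers. Cntnap1, of the paranodal junction of myelinated axons, went from 0.0466 FPKM to 7.12 FPKM, Cabp2, a neuronal calcium sensor, from 0 FPKM to 6.19 FPKM, and Dysf, the membrane repair protein dysferlin of muscle, from 0.378 FPKM to 6.17 FPKM. Slc18a1, a vesicular monoamine transporter of neuroendocrine cells, stood near the floor at 3.15 FPKM, from 0.0705 FPKM. Dppa3, the oocyte and germ cell factor Stella, went from 0 FPKM to 6.45 FPKM and Cstl1, a cystatin-like gene, from 0 FPKM to 3.87 FPKM, and both were listed at 0 in both livers. The lists from which these come held 43 silent neuronal genes with 2 switched on, 36 silent muscle genes with 1 switched on and 38 silent germ line genes with 2 switched on. The share over all silent entries was 0.636%, but the lists were chosen with earlier results of these data known. These small counts are therefore not read against it. None of 12 silent immediate early and stress genes was switched on. Of the listed genes of that kind that were not silent, 31 were at 1 FPKM or more in either 3T3 group. Of these, 18 were at least 2-fold higher and 3 at least 2-fold lower in HNF4A EE cells, beside 9.77% and 10.7% over all such entries.

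Fam25c, for which no role is given here, was the member with the highest level among those higher in cKO liver. It went from 0.192 FPKM to 12.6 FPKM in the cells and was at 36.6 FPKM in control liver and 272.6 FPKM in cKO liver, 7.45-fold higher. With Usp18, S100a8, Sorcs2, Mapk13, S100g and the Mir7-1 entry it completes the 7 members that were higher in HNF4A EE cells and higher in cKO liver.

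Several entries need care in what they count. The 8 small RNA entries were all listed at 0 in control cells, and they hold the highest values of the members, with Mir6958 at 357.4 FPKM and Mir207 at 106.3 FPKM. Their RefSeq lengths are 73 to 117 bases, and at such lengths few reads give a large FPKM. Of these, 7 have listed loci that overlap other entries, such as Mir207 with Dnaja1 and Smu1 and Mir7-1 with Hnrnpk, so reads of longer transcripts could fall in them. Mir692-2 and Mir708 carry the same value, 14.3 FPKM, and the same RefSeq length of 109 bases. These entries count reads over precursor loci, and the methods name no step that selects small RNA. The values are therefore not read as levels of the mature forms, and no sequence of them is shown. In liver Mir7-1 alone was above 0, at 5.91 FPKM in cKO liver. In all, 22 members have a listed locus that overlaps another entry, and the strand setting of the counting is not given in the sources used here, so reads of overlapping genes on opposite strands cannot be told apart. Slc6a19os, listed at 0 in control cells and 3.16 FPKM in HNF4A EE cells, shares its listed locus with Slc6a19, the neutral amino acid transporter of the intestinal and renal brush border, which went from 0.00775 FPKM to 2.83 FPKM. Cideb overlaps Nop9, which was at 21.7 FPKM and 24.7 FPKM in the cells and 7.44 FPKM and 7.40 FPKM in liver. The entry that joins Eif3j1 and Eif3j2 was at 0.0732 FPKM and 3.08 FPKM in the cells and at 1.16 FPKM and 0.0581 FPKM in liver, where it counts among the 12 lower members. Eif3j2 also has its own entry, at 6.96 FPKM and 6.13 FPKM in the cells and 1.94 FPKM and 2.73 FPKM in liver, so the joined entry may hold reads that moved between the 2.

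The limits of the rule cut through gene groups. Just inside the control limit were Cd80 at 0.489 FPKM, Rab17 at 0.456 FPKM and Lman1l at 0.456 FPKM. Just outside it were Lims2 at 0.527 FPKM in control and 6.16 FPKM in HNF4A EE cells, Oas1b at 0.542 FPKM and 3.85 FPKM, and Cyp3a13 at 0.560 FPKM and 4.09 FPKM. Just inside the floor in HNF4A EE cells were the Eif3j1 entry at 3.08 FPKM, Parp14 at 3.11 FPKM and Slc18a1 at 3.15 FPKM. Just outside it were Oasl2 at 2.98 FPKM, Glyat at 2.95 FPKM and Col12a1 at 2.95 FPKM. Glyat, the glycine N-acyltransferase of liver mitochondria, was at 177.5 FPKM in control liver and 5.02 FPKM in cKO liver, the pattern of the lower members, with 0.246 FPKM in control 3T3 cells.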

How the data were processed

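RNA-seq data of 3T3 cells and mouse livers were used, 3 samples in each of 4 groups. Per the methods and the submitters' processing notes, the authors aligned reads to mm10 with STAR 2.5.0b and calculated FPKM with Cufflinks 2.2.1. Which annotation, strand setting and library scaling they used is not given in the sources used here. As deposited, the tables hold 1 FPKM per gene entry and group, as the authors' value, so no spread or test was computed and the depth per sample is unknown. The authors' fold change, test statistic, p-value and significance columns hold their own comparison and were not used. Their status column was used to see which entries had enough reads.

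The members and gene lists were chosen with earlier results of these data known, and role groups were assigned after the members were known. Entries were taken at below 0.5 FPKM in control and 3 FPKM or more in HNF4A EE cells. Liver ratios used a pseudocount of 0.1 FPKM, a floor of 1 FPKM and a limit of 1 on the log2 scale. Folds printed for single genes are ratios of FPKM without the pseudocount. Named are the 12 members highest in HNF4A EE cells, the 12 largest falls, 6 rises and 5 smallest changes in liver, members on a list, and the 3 entries nearest each limit on either side. A gene that this rule takes is not reported here. Neighbours, overlapping genes and comparison genes were named after their values were seen. Promoter windows are from RefSeq (GRCm38.p6) and transcripts from GENCODE on the same assembly, aligned locally with Biopython 1.88. Alternatives changed the limits, the floor, the fold, the pseudocount, the entries kept and the comparator. The classification was tested on simulated data. Scripts ran in Python 3.11.15.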

Additional observations from a re-analysis of the deposited data

How the results depend on the processing

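No paired analysis was possible because the tables hold 1 value per group, and for the same reason no replicate could be left out. Of 48 alternatives, 45 left the count of members in a state within 1.5 times its value and 3 moved it further. The 45 include those that changed only the comparator, to protein coding entries, which could not move the count of members. With a control limit of 1 FPKM, 57 of 120 members were expressed in control liver. With a floor of 2 FPKM in HNF4A EE cells, 20 members were lower in cKO liver, and with a floor of 5 FPKM, 29 members were not expressed in liver. Over these settings 33.7% to 47.5% of members were expressed in control liver, against 10.2% to 16.6% of entries silent in both 3T3 groups, the highest of these backgrounds being protein coding entries only, a comparator added after seeing the data. Of members expressed in liver, 26.5% to 50.0% were lower in cKO liver, and this differed from the silent background by between -5.80 and 8.40 percentage points. Without small RNA and several-gene entries, 10 of 32 (31.2%) were lower. With 1 value per group, low values cannot be given an error, and a member near 3 FPKM may rest on few reads.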

Other observations

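The mirror of the rule, 3 FPKM or more in control 3T3 cells and below 0.5 FPKM in HNF4A EE cells, took 30 entries, of which 14 were small RNA entries listed at or near 0 in HNF4A EE cells. Apart from small RNA entries, 16 were switched off and 78 switched on, but the rules draw on different pools of entries. These counts are therefore not compared as rates. Of the 10522 entries at 0.5 FPKM or more in control and 1 FPKM or more in either 3T3 group, 9.77% were at least 2-fold higher and 10.7% lower. The highest of the 16 was Krt14, a keratin of basal epithelial cells, at 13.4 FPKM in control and 0.349 FPKM in HNF4A EE cells. Cd248, the mesenchymal surface protein endosialin, went from 4.08 FPKM to 0.128 FPKM, Thbs3, a thrombospondin, from 4.63 FPKM to 0.272 FPKM, and Adamts7, a secreted metalloproteinase, from 4.23 FPKM to 0.276 FPKM. Of the 16, only Olfml3 and Adamts7 were at 1 FPKM or more in control liver, and both changed less than 2-fold in cKO liver. These genes were picked after their values were seen.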
